A study of Mus musculus with 15 samples.

Results

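Mitochondrial ribosomal proteins are the protein part of the ribosome that works inside mitochondria. Their genes were taken here as every probe set of the array whose single annotated gene symbol begins with Mrpl or Mrps followed by a digit. This gave 127 of 22626 tested probe sets, and these stood for 74 of 12393 genes. Of the 74 genes, 47 were named Mrpl, for the large subunit, with 88 probe sets, and 27 were named Mrps, for the small subunit, with 39 probe sets. Members were thus chosen by gene symbol and by no measured value, but the family was proposed, and Mrps11 singled out, with earlier results of these data known. A further 3 probe sets that listed an Mrp gene together with another gene were left out.

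The study stimulated mouse neural stem cells with CD95L-T4, a trimerised construct of CD95 ligand, which binds the death receptor CD95, and measured RNA on Affymetrix arrays 48 hours later. The cells were primary neurosphere cultures from female mice of strain C57/B16 aged 6 weeks, without any reported genetic change. The 15 arrays formed 4 groups. Total RNA was measured in 4 control and 4 CD95L-T4 samples, and polysomal RNA in 4 control and 3 CD95L-T4 samples. Polysomal RNA is RNA bound to several ribosomes at once, which is RNA in translation in the cytosol. Titles call the replicates biological, but whether each came from its own animal or culture is not given, so p-values measure the spread between these samples. Total RNA was isolated with the mirVana kit and is labelled total RNA, whereas polysomal RNA was isolated with phenol and chloroform and is labelled polyA RNA, so fraction, extraction and molecule cannot be told apart. Values are log2 signals set to a common scale between arrays, so a difference between fractions is relative to the other messages on the array and gives no absolute share of a message on polysomes. In bulk samples such as these, fewer cells of a type and less RNA per cell cannot be told apart. Of 8 neural stem cell markers, 6 lay above the median probe set in control total RNA, among them Sox2 and Fabp7, while Prom1 and Hes5 lay below it. None of the 5 microglia and blood markers, the 4 endothelial or the 4 fibroblast markers lay above that median, while 2 of 5 neuronal markers (Map2 and Tubb3) and 1 of 4 astrocyte markers (S100b) did. Array medians moved with the fraction, at 6.92 to 6.98 in total and 6.83 to 6.88 in polysomal arrays. The number of arrays limits the precision.

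Mitochondrial ribosomes translate the few messages encoded in mitochondrial DNA, all of them for membrane subunits of the respiratory chain and ATP synthase. Every protein of these ribosomes is encoded in the nucleus, translated on cytosolic ribosomes and imported into the mitochondrion. Part of the proteins descend from the bacterial ribosome, and the rest were added in the eukaryotic lineage, where they replace lost ribosomal RNA or coat the surface.

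The messages are made from many separate promoters, and the start regions of 5 genes named below are shown as a description. The part of these regions in the measured differences was not tested. Each line gives 70 bases before the annotated start and 20 bases from the start on, 5′ to 3′ on the gene's strand, from RefSeq (GRCm38.p6). Capitals mark CCGGAAG, a core motif of the ETS family factors such as GABP (NRF2) that act at many promoters of nuclear genes for mitochondria, or its reverse complement. The 5 are Mrps21 and Mrpl33, with large differences between fractions toward polysomal RNA, Mrpl52, with several probe sets that disagreed, Mrpl3, with the largest difference toward total RNA, and Mrps11.
Mrps21 (chr3:95871495-95871584, minus strand): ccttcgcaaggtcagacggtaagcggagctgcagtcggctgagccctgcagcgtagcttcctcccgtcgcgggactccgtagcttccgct
Mrpl33 (chr5:31613881-31613970, plus strand): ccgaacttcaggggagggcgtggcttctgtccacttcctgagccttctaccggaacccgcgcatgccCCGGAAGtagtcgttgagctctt
Mrpl52 (chr14:54426839-54426928, plus strand): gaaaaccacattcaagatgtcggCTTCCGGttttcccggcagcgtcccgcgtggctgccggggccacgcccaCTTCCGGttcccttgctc
Mrpl3 (chr9:105053198-105053287, plus strand): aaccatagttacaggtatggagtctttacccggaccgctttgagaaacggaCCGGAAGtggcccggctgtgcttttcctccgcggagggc
Mrps11 (chr7:78783061-78783150, plus strand): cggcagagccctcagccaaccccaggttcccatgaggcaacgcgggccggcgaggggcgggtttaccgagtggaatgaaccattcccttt

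The RefSeq table held start regions of 65 of the 74 members. Within 250 bases before to 50 after the start, on either strand, CCGGAAG was found in 24 of 65 members (36.9%) and in 16.4% of the 9785 measured genes with such a region. GCGCATGCG, a motif of NRF1, another activator of such genes, was found in 7 of 65 (10.8%) against 3.34%, and AAGATGGCG of YY1 in 7 of 65 (10.8%) against 2.83%. The lengths of these motifs were varied after values had been seen: with 1 more letter at the end (C for NRF1, G for YY1) the shares were 4.62% against 1.84% and 6.15% against 1.84%. The ETS and YY1 motifs can overlap by the letters AAG, and a region could hold several motifs. Messages of cytosolic ribosomal proteins often begin with a C and a run of pyrimidines, a feature through which mTOR signalling acts on their translation. An annotated start at C followed by 4 pyrimidines was found in 0 of 65 members, in 9 of 43 cytosolic ribosomal protein genes (20.9%) and in 3.0% of all. A match is a description of letters only, and annotated starts can be off by some bases.

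In control cultures, most mitochondrial ribosomal protein messages were higher in polysomal than in total RNA, relative to the other messages. The limma fit called 60 of the 74 genes higher (81.1%) and 5 lower (6.76%), with 9 not called, against a background of 33.5% of all genes higher and 23.2% lower. The median log2 difference of the members was 0.80, a 1.75-fold difference, against 0.10 over all genes. Values of the polysomal and total arrays did not overlap in 62 members with higher polysomal values and 5 with lower ones, against 32.2% and 23.3% of all genes. Every member was represented by a probe set in the brightest 50% of those tested, where 39.9% of 6683 genes were called higher and 36.5% lower, with a median of 0.02. The 3′ minus 5′ signal of the actin control, a sign of RNA integrity, also moved with the fraction, at 0.28 to 0.57 in control total and 0.74 to 0.81 in control polysomal arrays. Spiked poly-A controls averaged 7.31 ± 0.26 (SD, n = 4) and 8.10 ± 0.24 (SD, n = 4). Their part in the result was not tested.

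**Figure D1:**
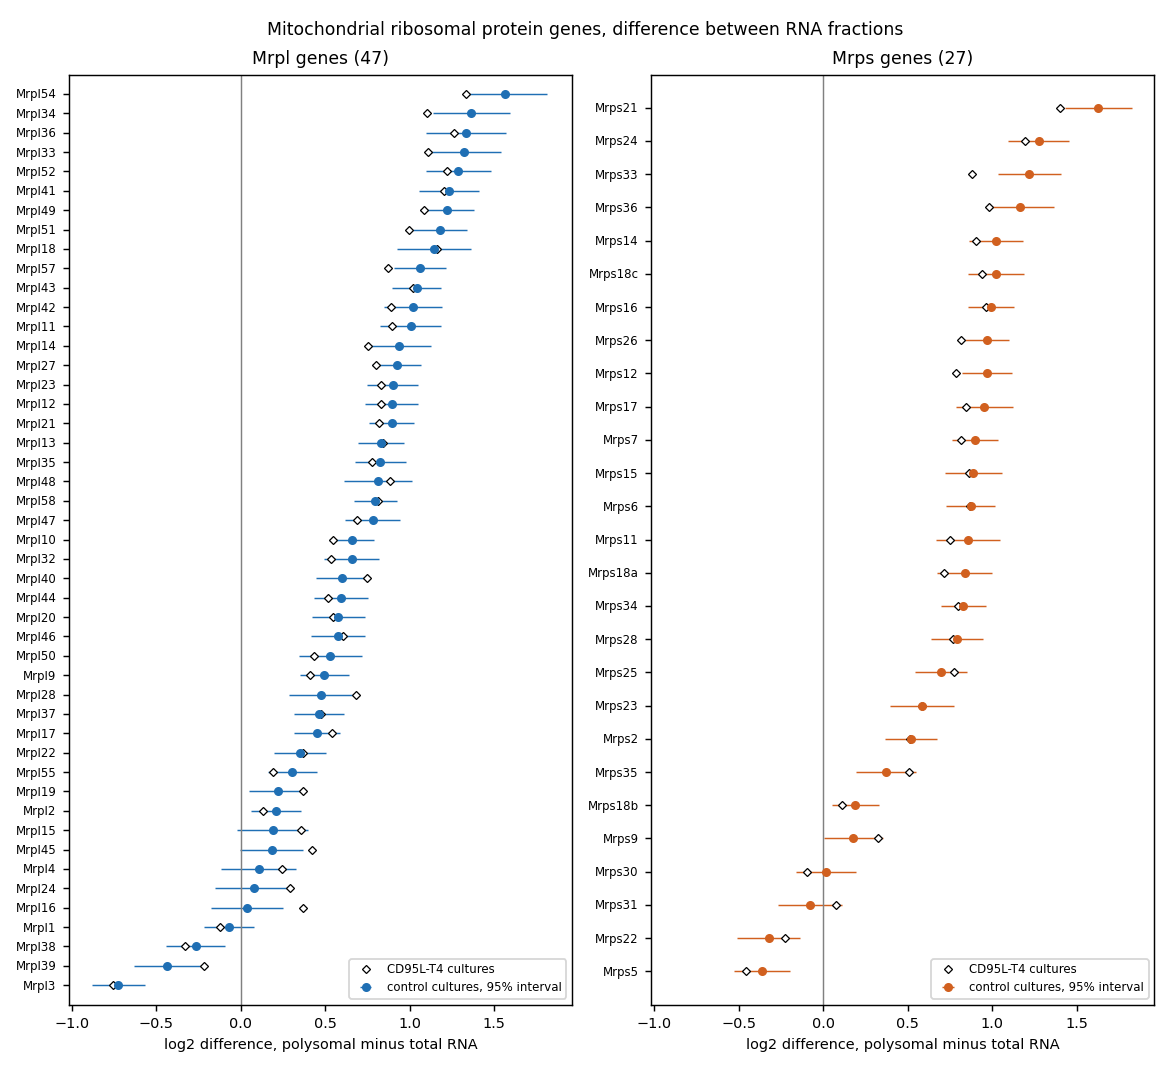
Log2 difference between polysomal and total RNA of each of the 74 genes, Mrpl on the left and Mrps on the right. Filled circles with lines are control cultures with 95% intervals (4 arrays against 4), and open diamonds are CD95L-T4 cultures (3 against 4). Control values run from -0.73 (Mrpl3) to 1.63 (Mrps21), and the diamonds lie close to the circles.

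The highest value of the family was that of Mrps21, a protein of the small subunit with a bacterial counterpart. Its log2 values in control total RNA were 10.26, 10.14, 10.07 and 10.13, and in control polysomal RNA 11.90, 11.74, 11.76 and 11.71. Every polysomal array lay above every total array, with a difference of 1.63 ± 0.09 (SE, limma adjusted p = 2.85e-10). Mrpl54, a large subunit protein without a bacterial counterpart, had 8.60, 8.42, 8.28 and 8.37 in control total RNA and 10.11, 10.06, 9.93 and 9.83 in control polysomal RNA. Its groups were also well apart, and the difference was 1.57 ± 0.12 (SE, adjusted p = 3.71e-09). Next came Mrpl34 (1.36), Mrpl36 (1.33), Mrpl33 (1.32) and Mrpl52 (1.29), with adjusted p between 2.33e-09 and 1.56e-08. Mrpl33, Mrpl34 and Mrpl36 are small proteins of the large subunit core with counterparts in bacteria. In control polysomal RNA, Mrpl33 had 11.47 in replicate 1 and 10.99 to 11.06 in the other 3 arrays, and all 4 lay above the total arrays, at 9.73 to 9.86.

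A smaller group ran the other way. Mrpl3, which reaches toward the peptidyl transferase centre of the large subunit, had 10.25, 10.15, 10.25 and 10.12 in control total RNA and 9.39, 9.39, 9.52 and 9.57 in control polysomal RNA. All polysomal arrays lay below all total arrays, and the difference was -0.73 ± 0.07 (SE, adjusted p = 1.77e-07). Its other probe sets gave -0.57 and -0.64, both called. Mrps5, a small subunit protein at the entry of the messenger RNA channel, had 9.34, 9.12, 9.24 and 9.15 in total and 8.92, 8.82, 8.82 and 8.84 in polysomal RNA, again without overlap. Its difference was -0.36 ± 0.08 (SE, adjusted p = 0.000667), and its second probe set gave -0.74. Mrpl39 (-0.44, adjusted p = 0.000542), Mrps22 (-0.32, adjusted p = 0.00437) and Mrpl38 (-0.27, adjusted p = 0.0112) were the other genes called lower. The second probe set of Mrpl39 gave -0.08 and was not called (adjusted p = 0.526). That of Mrpl38 gave 1.52 and was called higher. Mrpl39 and Mrps22 have no bacterial counterpart. Mrps31 (-0.07) and Mrpl1 (-0.07) followed without a call.

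Members at some functional sites of the ribosome were added for their known roles after values had been seen. The stalk of the large subunit, where translation factors bind, gave 0.66 for Mrpl10, 1.01 for Mrpl11 and 0.89 for Mrpl12, all called higher in polysomal RNA. Mrpl12, which in human cells has also been found to bind mitochondrial RNA polymerase, had 11.16 to 11.32 in the 4 control total arrays and 12.05 to 12.18 in the 4 polysomal ones. Around the exit tunnel of the new protein, Mrpl22 (0.35) and Mrpl23 (0.90) were called higher and Mrpl24 (0.08, adjusted p = 0.561) was not. Mrpl45, which holds the ribosome at the inner membrane, had 0.18 (adjusted p = 0.0918). Mrpl32, which is matured by the m-AAA protease, and Mrpl58, also known as ICT1, a peptidyl-tRNA hydrolase built into the ribosome, were higher by 0.66 and 0.80. Mrpl41, which is also reported to act in p53-linked growth arrest in human cells, was higher by 1.23 ± 0.08 (SE, adjusted p = 1.38e-09), and Mrpl42, Mrpl27 and Mrpl51 by 1.02, 0.92 and 1.18. In the small subunit, Mrps12 of the decoding centre was higher by 0.97 ± 0.07 (SE, adjusted p = 2.51e-09) and Mrps7 of the head by 0.90. Mrps9 and Mrps31, also of the head, had 0.18 (adjusted p = 0.0781) and -0.07 without a call. A dimmer probe set of Mrps9, 1439210_at, was called lower (-0.245, adjusted p = 0.0215), and its remaining probe sets gave 0.0625 and 0.1375 without a call. Mrpl19 was higher by 0.22 (adjusted p = 0.0283), a call that was lost in 4 of 15 fits with 1 array left out (control total replicates 3 and 4, control polysomal replicates 1 and 4), at 0.19 to 0.21.

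The paralogues of bacterial protein S18 differed among themselves. Mrps18c had 10.38 to 10.5 in control total RNA and 11.44 to 11.53 in polysomal RNA, a difference of 1.02 ± 0.08 (SE). Mrps18a, which sits in the large subunit in spite of its name, had 9.76 to 9.87 and 10.58 to 10.72, a difference of 0.84 ± 0.08 (SE). Mrps18b had 10.02, 9.98, 9.89 and 9.81 against 10.12, 10.07, 10.14 and 10.13, and its 0.19 ± 0.07 (SE, adjusted p = 0.0205) was small beside the others, although its groups did not overlap. The call was lost without control total replicate 3 (0.18) or 4 (0.15). The difference between paralogues was not tested. Mrps30, a second protein of the large subunit with a small subunit name, had 9.35 to 9.49 in total and 9.42 to 9.49 in polysomal RNA and was not called (0.02, adjusted p = 0.876). Mrps36, now known as a subunit of the 2-oxoglutarate dehydrogenase complex rather than of the ribosome, was higher by 1.17 ± 0.09 (SE, adjusted p = 9.57e-09).

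**Figure D2:**
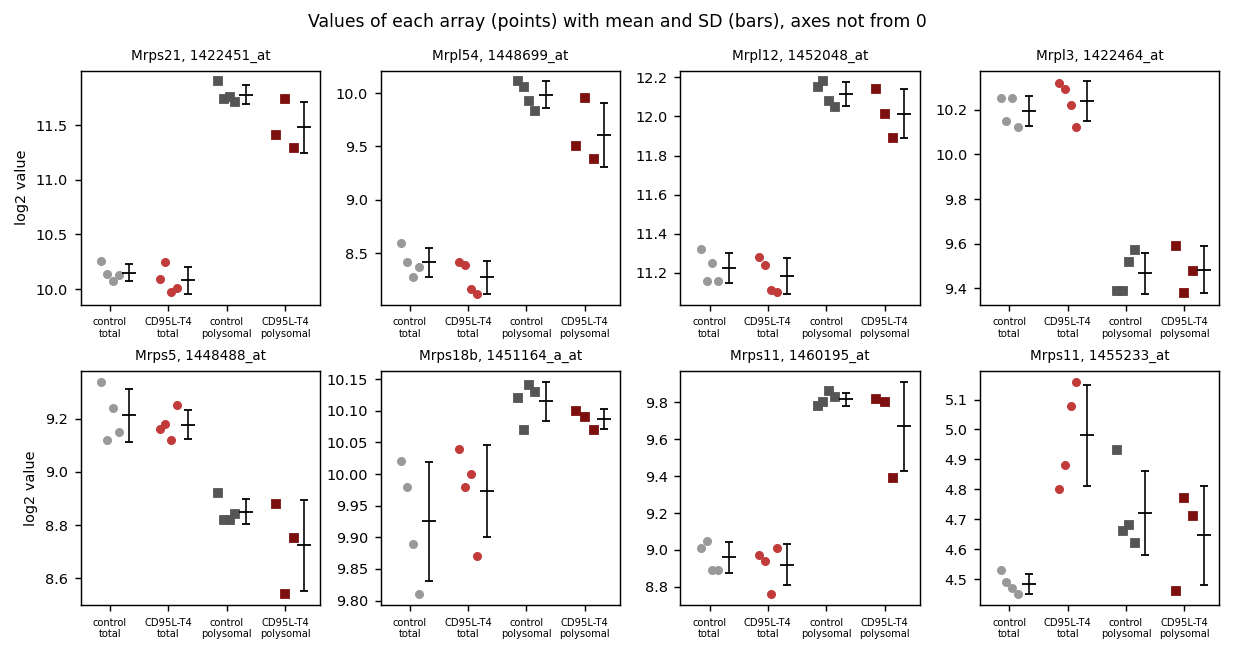
Log2 values of 8 probe sets in each of the 15 arrays, with the mean and SD of each group as a bar. Mrps21, Mrpl54 and Mrpl12 have higher values in both polysomal groups, Mrpl3 and Mrps5 have lower ones, Mrps18b moves little, and the Mrps11 probe sets have unlike patterns. Vertical axes do not start at 0 and differ between panels.

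Large and small subunit names gave similar pictures in control cultures. Of the 47 Mrpl genes, 38 were called higher and 3 lower, with a median of 0.66, and of the 27 Mrps genes, 22 were called higher and 2 lower, with a median of 0.86. The Mrpl median of these differences was lower by 0.20 (log2). With 1 array left out, this gap ran from -0.22 to -0.16. Taken instead from the median level of each array, Mrpl minus Mrps was -0.145 ± 0.06 (SD, n = 4) in control total and -0.185 ± 0.07 (SD, n = 4) in control polysomal RNA, which differed by less than the spread between arrays. That spread belongs to the array medians and does not measure the spread of the 0.20. No test over genes was made, since genes are not replicates. The 45 members with a bacterial counterpart had a median of 0.83, with 37 higher and 2 lower, and the 29 without one a median of 0.70, with 23 higher and 3 lower. Members with a longer genomic span had smaller differences (Spearman rho = -0.42 across 74 genes, given as a description). The same held across 12367 genes of all kinds (rho = -0.31), and the median span was 7610 bases in members and 20144 bases over all genes.

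In CD95L-T4 cultures the same comparison called 63 members higher (85.1%) and 3 lower, with 8 not called. The background was 29.6% of genes higher and 21.8% lower. The median was 0.76, against 0.07 over all genes. In the brightest 50% of probe sets, 40.0% of genes were called higher and 33.7% lower. The group means came from other arrays than in the control comparison, but the spread was estimated over all arrays together. The calls of both comparisons are thus not independent. In 63 members the polysomal arrays lay above all total arrays and in 3 below, against 27.8% and 20.4% of genes. The actin 3′ minus 5′ signal moved with the fraction here too, at 0.32 to 0.46 in total and 0.59 to 1.03 in polysomal arrays, and spiked poly-A controls averaged 7.35 and 8.14. Mrpl genes had a median of 0.69 (41 higher, 2 lower) and Mrps genes one of 0.79 (22 higher, 1 lower), so the Mrpl median was lower by 0.10. This gap between the medians was -0.19 when the probe sets of a gene were averaged. The highest values were again those of Mrps21 (1.40 ± 0.10, SE, adjusted p = 6.31e-09) and Mrpl54 (1.34 ± 0.13, SE), followed by Mrpl36 (1.26), Mrpl52 (1.22), Mrpl41 (1.21) and Mrps24 (1.19). Mrps21 had 9.97 to 10.25 in the 4 total arrays and 11.41, 11.74 and 11.29 in the polysomal arrays. The genes called lower were Mrpl3 (-0.75 ± 0.08, SE, adjusted p = 3.86e-07), Mrps5 (-0.45, adjusted p = 0.000183) and Mrpl38 (-0.33, adjusted p = 0.00495).

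Gene by gene, 58 members were called higher in both kinds of culture and 3 lower in both. The 3 include Mrpl38, whose other probe set was called higher in both. No member was called in opposite directions, 4 were called in control cultures alone, 5 in CD95L-T4 cultures alone and 4 in neither. Among those called once, Mrpl39 had -0.44 in control and -0.22 (adjusted p = 0.0781) in CD95L-T4 cultures, and Mrps18b had 0.19 and 0.11 (adjusted p = 0.198). Across the 74 genes the differences of both culture conditions had a Pearson r of 0.97 and a Spearman rho of 0.97, and over all 12393 genes r was 0.96. The points of both axes share probe sets, and no p is given.

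Set beside related genes, the family stood higher in median than the lists that were examined with it. Of 49 measured cytosolic ribosomal protein genes, 26 were called higher in control polysomal RNA and 2 lower, with a median of 0.19 (0.17 in CD95L-T4 cultures). Rps25 (1.39), Rpl37 (1.13) and Fau (0.87) were the clearest of these. Of 78 nuclear genes for respiratory chain and ATP synthase subunits, 53 were called higher and 13 lower, with a median of 0.51 (0.39 in CD95L-T4 cultures). The genes with the smallest p in that list were all lower, namely the succinate dehydrogenase flavoprotein Sdha (-2.03), the complex I subunit Ndufs1 (-1.63) and the ATP synthase alpha subunit Atp5a1 (-1.52). No list was tested against another. In control total arrays the list medians averaged 13.48 for cytosolic ribosomal proteins, 11.645 for respiratory chain subunits and 9.95 for the family. Rps25, Rpl37 and Fau had means of 10.44, 10.45 and 12.29 there. The part of signal level in these differences was not tested.

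**Figure D3:**
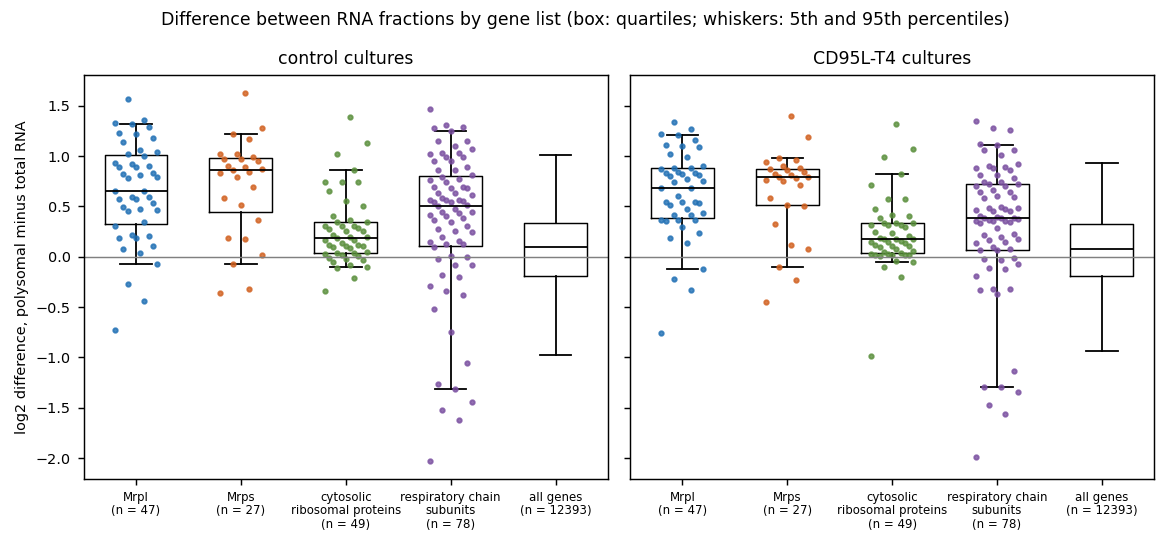
Log2 difference between polysomal and total RNA by gene list, in control cultures (left) and CD95L-T4 cultures (right), with each gene as a point except for all genes. Boxes show the median and quartiles and whiskers the 5th and 95th percentiles. Medians in control cultures are 0.66 for Mrpl, 0.86 for Mrps, 0.19 for cytosolic ribosomal proteins, 0.51 for respiratory chain subunits and 0.10 for all genes.

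Proteins of the mitochondrial ribosome that carry other names did not all follow the family. Of 4 measured, Chchd1 (1.0 ± 0.08, SE) and Gadd45gip1 (0.64 ± 0.11, SE) were called higher in control polysomal RNA. Dap3, a GTP-binding protein of the small subunit head, was lower by -0.79 ± 0.08 (SE, adjusted p = 1.66e-07), and Ptcd3 was not called (-0.09). Genes that serve mitochondrial translation in other ways were mixed. Of 9 translation factors, 3 were higher and 4 lower. The ribosome recycling factor Mrrf (1.18) and the RNA-binding protein Slirp (1.22) lay on one side, while the elongation factors Gfm1 (-1.48) and Tufm (-0.77) and the Slirp partner Lrpprc (-1.02) lay on the other. Of 16 assembly genes, 7 were higher, among them the RNA methyltransferase Mrm2 (0.69) and Mterf4 (0.85), and 4 were lower, among them Afg3l2 (-0.73), a subunit of the protease that matures Mrpl32. Of 8 genes of mitochondrial transcription and RNA processing, 4 were higher, with Tefm at 0.90 and Tfb2m at 0.75, and 3 were lower, with Pnpt1 at -0.83. Of 11 mitochondrial aminoacyl-tRNA synthetase and amidotransferase genes, 4 were higher, with Gatc at 0.94, and 3 lower, with Iars2 at -1.46. The 1 measured message encoded in mitochondrial DNA was ND5, a complex I subunit that is transcribed and translated inside mitochondria. It had a log2 value of 12.6 in control total RNA and 9.31 in control polysomal RNA. Its difference of -3.30 ± 0.20 (SE, adjusted p = 5.29e-10) was the lowest of all 12393 genes, and it was -2.77 in CD95L-T4 cultures.

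Several members have a nearby neighbour that is read in the opposite direction. A start of another gene within 1000 bases, head to head, was found for 22 of 65 members (33.8%) and for 10.7% of the 9785 measured genes. Mrps11 and Mrpl46, 1 protein of each subunit, form such a pair with 41 bases between their starts, so the Mrps11 line printed above also holds the start region of Mrpl46. Their differences between fractions in control cultures were 0.86 and 0.58. Mrpl46 had 9.34, 9.33, 9.20 and 9.22 in control total RNA and 9.77, 9.78, 9.91 and 9.93 in control polysomal RNA. Of 16 such pairs with a measured neighbour, both genes were called higher in 7, the neighbour was lower in 4 and the neighbour was not called in 5. The 7 include Mrps11 with Mrpl46, which are both members. Over all genes, 33.5% were called higher and 23.2% lower, and whether neighbours differ from this was not tested. Mrpl49 (1.22) is paired with Fau (0.87), a cytosolic ribosomal protein gene, and Mrpl40 (0.60) with Hira (0.55), and all 4 genes were called higher. Unlike pairs were Mrpl51 at 1.18 beside Ncapd2 at -0.78 and Mrpl41 at 1.23 beside Pnpla7 at -0.62. These starts lie 613 and 934 bases apart, so a shared promoter cannot be assumed. Closer unlike pairs were Mrpl18 at 1.14 beside Tcp1 at -0.56 (237 bases) and Mrps12 at 0.97 beside Sars2 at 0.05 (146 bases).

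Mrps11, a small subunit protein of the platform near the messenger RNA exit, was read by 2 probe sets that had unlike patterns. The first, 1460195_at, had log2 values of 9.01, 9.05, 8.89 and 8.89 in control total RNA and 9.78, 9.80, 9.86 and 9.83 in control polysomal RNA. In CD95L-T4 cultures it had 8.97, 8.94, 8.76 and 9.01 in total and 9.82, 9.80 and 9.39 in polysomal RNA. Its polysomal arrays lay above its total arrays in both conditions, by a mean of 0.86 in control and 0.75 in CD95L-T4 cultures, given as a description without a test. For CD95L-T4 against control it gave -0.04 ± 0.09 (SE, adjusted p = 0.997) in total RNA and -0.15 ± 0.10 (SE, adjusted p = 0.632) in polysomal RNA. The polysomal value rests on replicate 3 (9.39) and was -0.01 without it.

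The second Mrps11 probe set, 1455233_at, gave a low signal and had 4.53, 4.49, 4.47 and 4.45 in control total RNA. In CD95L-T4 total RNA it had 4.80, 4.88, 5.08 and 5.16, and each of these lay above each control array. Its control polysomal values were 4.93, 4.66, 4.68 and 4.62, and its CD95L-T4 polysomal values 4.46, 4.77 and 4.71, which overlap. The CD95L-T4 effect in total RNA was 0.50 ± 0.09 (SE), with a 95% interval of 0.30 to 0.69, and it did not pass the limma test over all probe sets (adjusted p = 0.803). In polysomal RNA it was -0.08 ± 0.10 (SE, adjusted p = 0.838), and the interaction was -0.57 ± 0.14 (SE, adjusted p = 0.897). The difference between fractions was 0.24 in control and -0.33 in CD95L-T4 cultures. The gene was represented by 1460195_at in all counts.

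Of the 74 members, 33 had more than 1 probe set, with at most 7 (Mrpl15). In 19 of the 33, every probe set was called higher in control polysomal RNA, and the median range within a gene was 0.35. The matching shares over all genes with several probe sets are not given here, so whether such agreement is usual cannot be told. The widest range was that of Mrpl38, where 1447961_s_at had 9.69, 9.56, 9.5 and 9.42 in control total and 9.41, 9.18, 9.27 and 9.24 in control polysomal RNA. Its other probe set, 1430610_at, had 6.22, 6.35, 5.93 and 5.94 against 7.80, 7.61, 7.56 and 7.55. The first gave -0.27 and the second 1.52, both called, and Mrpl38 was the 1 gene of 33 with calls in opposite directions in control cultures, so its direction depends on the probe set. In CD95L-T4 cultures, leaving aside Mrps11, 4 genes had such calls, namely Mrpl38 (-0.33 and 1.31), Mrpl33 (1.11 and -0.35), Mrpl42 (0.89 and -0.22) and Mrps9 (0.33 and -0.29). Mrpl52 had 3 probe sets between 1.29 and 1.33 and another, 1455366_at, at -0.12 with a control total mean of 4.32. Mrpl33 gave 1.32 and 0.09, and Mrpl42 gave 1.02 and -0.08, where the second value of each came from a probe set with control total means of 4.19 and 3.11. The 7 probe sets of Mrpl15 ran from -0.05 to 0.86. Counted by probe set, 94 of the 127 were called higher and 9 lower, against 29.8% and 26.3% of all probe sets, with a median of 0.67.

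**Figure D4:**
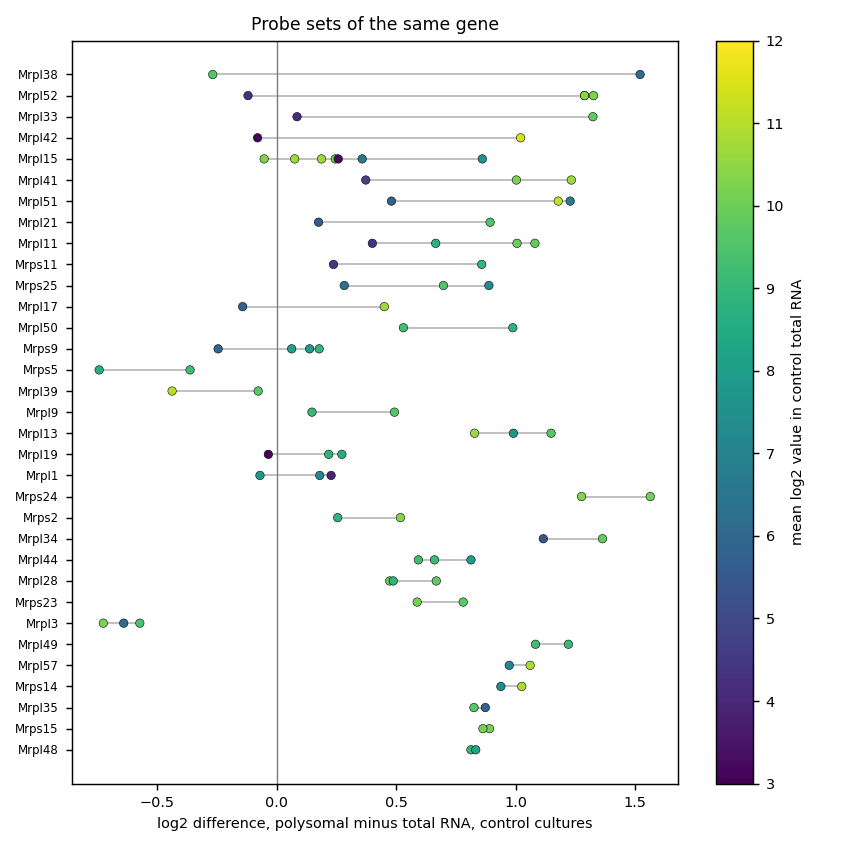
Log2 difference between polysomal and total RNA in control cultures for each probe set of the 33 genes with more than 1, ordered by the range within the gene. Colour gives the mean log2 value of the probe set in control total RNA. Mrpl38 has probe sets on both sides of 0 that were both called, at -0.27 and 1.52.

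CD95L-T4 left no member past the threshold in total RNA. The limma test called 0 of 74 genes, and 0% of all genes, in total RNA, and 0 of 74 members had an unadjusted p under 0.05, against 3.44% of genes. The median log2 effect was -0.02 for Mrpl and -0.02 for Mrps, against 0.01 over all genes, and single members ran from -0.20 to 0.12. The 95% intervals of 74 of 74 members lay within a 1.5-fold change in either direction, as did those of 99.0% of all genes. The members with the smallest p were Mrpl18 (-0.20 ± 0.10, SE), Mrpl52 (-0.17), Mrpl9 (0.12), Mrpl1 (0.12) and Mrpl42 (-0.13), each with an adjusted p of 0.997. In 1 member the CD95L-T4 arrays lay wholly above the control arrays and in 0 wholly below, against 1.78% and 0.96% of genes.

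In polysomal RNA, no member passed the test for CD95L-T4, and the slightly lower median of the family depended in part on replicate 3. The median log2 value over the 74 genes was 10.57, 10.57 and 10.43 in CD95L-T4 replicates 1, 2 and 3 and 10.55 to 10.62 in the control arrays. Again 0 of 74 members were called (0% of genes), while 12 of 74 (16.2%) had an unadjusted p under 0.05, of which 11 were lower and 1 higher, against 9.49% of genes. Of the 78 respiratory chain and ATP synthase genes, 19 (24.4%) had one, of which 18 were lower, with a median of -0.09. The median effect was -0.07 for Mrpl and -0.11 for Mrps, against 0.00 over all genes. Mrpl54 had 10.11, 10.06, 9.93 and 9.83 in control polysomal RNA and 9.5, 9.95 and 9.38 with CD95L-T4, a difference of -0.37 ± 0.13 (SE, adjusted p = 0.474). These groups overlap through replicate 2 (9.95). Mrpl42 had 12.35 to 12.60 in control and 12.15, 12.35 and 12.08 with CD95L-T4 (-0.27, adjusted p = 0.474), and Mrps21 gave -0.30 and Mrpl34 -0.30. Mrpl16, a large subunit protein with a bacterial counterpart, had 9.40 to 9.72 in control polysomal RNA and 10.10, 9.55 and 9.90 with CD95L-T4, a difference of 0.31 (adjusted p = 0.475) in which replicate 2 lay within the control range. The CD95L-T4 arrays lay wholly below the control arrays in 5 members and wholly above in 0, against 2.95% and 2.53% of genes. The intervals of 73 of 74 members lay within a 1.5-fold change, as did those of 97.3% of all genes.

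The polysomal result depended on single arrays. Without CD95L-T4 polysomal replicate 3, the median effect over the 74 genes was -0.035 instead of -0.09, and that of the interaction -0.00875 instead of -0.06. Without CD95L-T4 polysomal replicate 2, limma called 10 members lower and 2 higher, against 3.29% and 3.08% of genes. The lower ones were Mrpl54 (-0.54, adjusted p = 0.0148), Mrpl34 (-0.49), Mrps21 (-0.43), Mrpl36 (-0.38), Mrps33 (-0.38), Mrpl52 (-0.37), Mrps36 (-0.35), Mrpl42 (-0.35), Mrps24 (-0.30) and Mrpl51 (-0.29), and the higher ones were Mrpl16 (0.46, adjusted p = 0.0154) and Mrpl39 (0.33). The comparison then rests on 2 CD95L-T4 arrays. Apart from Mrps33 and Mrpl16, these genes are also given above by their difference between fractions. Both comparisons use the control polysomal arrays, so neither is support for the other. Spiked poly-A controls averaged 9.10 in replicate 2, against 7.60 and 7.72 in the other CD95L-T4 polysomal arrays and 7.83 to 8.35 in the control polysomal arrays. The actin 3′ minus 5′ signal was 0.59, 0.68 and 1.03 in CD95L-T4 replicates 1, 2 and 3 and 0.74 to 0.81 in control polysomal arrays. The part of either in the result was not tested.

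**Figure D5:**
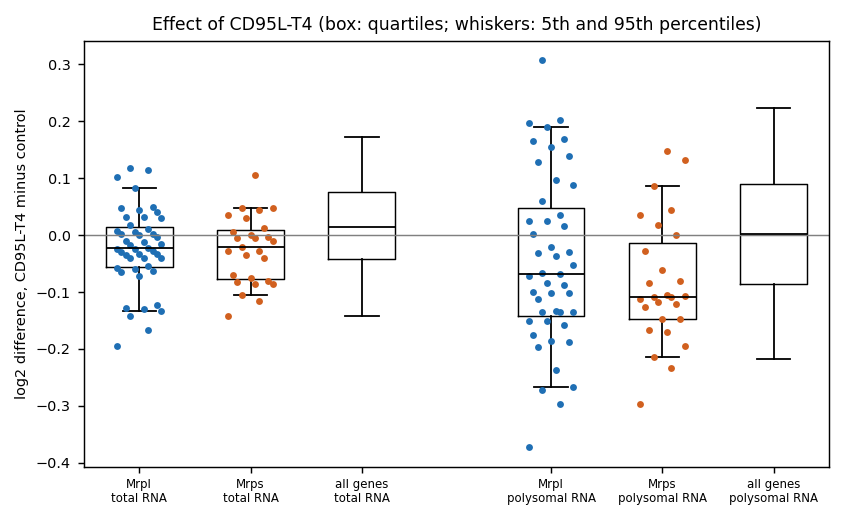
Log2 difference between CD95L-T4 and control cultures for Mrpl genes (n = 47), Mrps genes (n = 27) and all genes, in total RNA (left) and polysomal RNA (right), over all 15 arrays. Boxes show the median and quartiles and whiskers the 5th and 95th percentiles. Polysomal medians are -0.07 for Mrpl and -0.11 for Mrps, and no gene passed the test.

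The CD95L-T4 effect was not shown to differ between the fractions for any member. The interaction called 0 of 74 genes (0% of genes), and 2 of 74 (2.70%) had an unadjusted p under 0.05, against 3.99% of genes. Its median was -0.06 for Mrpl and -0.08 for Mrps, against -0.01 over all genes. Mrps33, a small subunit protein, had 10.37 to 10.51 in control total, 10.49 to 10.62 in CD95L-T4 total and 11.62 to 11.72 in control polysomal RNA, but 11.37, 11.72 and 11.22 in CD95L-T4 polysomal RNA, where replicate 2 again lay apart. Mrps33 (-0.34 ± 0.13, SE) and Mrpl16 (0.33 ± 0.15, SE) had the smallest p, followed by Mrpl45 (0.24), Mrps12 (-0.18) and Mrpl57 (-0.19), each with an adjusted p of 0.897. Per array, the median log2 value over the 74 genes was 9.89 to 10.02 in control total RNA, 9.89 to 10.00 in CD95L-T4 total RNA, 10.55 to 10.62 in control polysomal RNA and 10.43 to 10.57 in CD95L-T4 polysomal RNA. The fractions did not overlap in this median, and control and CD95L-T4 arrays did overlap within each fraction.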

How the data were processed

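The deposited series table holds log2 values per probe set in 15 arrays, which the authors normalised between arrays; the method is not given in the sources used here, and the scale was judged from the values. Groups were read from the sample titles. Affymetrix control probe sets (64) were left out and 22626 probe sets tested, named through the platform annotation. A gene was represented by its probe set with the highest mean over all arrays. Values were fitted in limma 3.58.1 (R 4.3.3) with 1 mean per group, empirical Bayes moderation and two-sided tests, Benjamini-Hochberg adjusted over all probe sets of a contrast (threshold 0.05). Members, gene lists and marker lists were chosen with earlier results of these data known.

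Genes named were Mrps11, the 6 highest and 6 lowest members per fraction contrast, the 5 with the smallest p per CD95L-T4 contrast, the 4 brightest and 4 dimmest, the 4 with the widest probe set range, 8 paralogues and proteins of known role, and up to 3 genes per related list. Other members of each site were added for description. The steps were tested on simulated data. Samples with equal replicate numbers were on average hardly more alike than others (mean correlation of deviations 0.02 for equal numbers and -0.01 for unequal ones). No pairing was fitted in the main model, and a weak mean correlation cannot exclude one. Alternatives were other scalings, filters on dim probe sets, other variance models, a replicate block, a size threshold, averaged probe sets and leaving out each array.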

Additional observations from a re-analysis of the deposited data

Results flagged for a closer look

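In 6 of 105 series of 4 arrays, 1 array stood apart from the other 3 by Dixon's criterion, which chance alone meets in about 1 in 20. Mrps22 had 10.09 in control total replicate 4 and 10.19 to 10.21 in the others. Mrps24 had 10.42 in control total replicate 1 and 10.19 to 10.21 in the others. Mrpl51 had 11.09 in CD95L-T4 total replicate 4 and 11.20 to 11.21 in the others. Mrps18c had 10.61 in CD95L-T4 total replicate 1, against 10.34 to 10.38, and 11.53 in control polysomal replicate 2, against 11.44 to 11.45. Mrpl33 had 11.47 in control polysomal replicate 1 and 10.99 to 11.06 in the others. No group of 3 arrays was examined in this way.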

How the results depend on the processing

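Of 430 values for whole comparisons recomputed under the alternatives, 424 kept their call or moved little and 6 moved. Of 1699 values for named genes and medians, 1652 stayed alike, 9 lost their call, 26 gained one, 3 moved and 9 changed sign. The count of members called between fractions in control cultures was 65 and ranged from 62 to 66 when 1 array was left out, and in CD95L-T4 cultures it was 66 and ranged from 64 to 67. With a size threshold of 0.5 in log2, 50 members were higher and 1 lower in control cultures, and 52 and 1 in CD95L-T4 cultures. The count for CD95L-T4 in polysomal RNA ranged from 0 to 12 when 1 array was left out, with 12 without CD95L-T4 polysomal replicate 2, and the cause was not tested. The gap between the Mrpl and Mrps medians in CD95L-T4 cultures, -0.10, was -0.19 with averaged probe sets and -0.18 with every probe set counted. For Mrps11 (1460195_at), leaving out 1 array gave -0.22 to -0.0075 for the polysomal CD95L-T4 effect, -0.18 to 0.0325 for the interaction and 0.68 to 0.89 for the difference between fractions in CD95L-T4 cultures. Signs turned for 4 genes near 0 or with disagreeing probe sets. Mrpl1 in control cultures was 0.0175 after quantile normalisation, 0.0225 with equal array medians and 0.11 with averaged probe sets, and 0.20 in CD95L-T4 cultures with averaged probe sets. Mrps31 was 0.0175 with equal array medians. Mrpl38 was 0.63 in control and 0.49 in CD95L-T4 cultures with averaged probe sets. Mrps30 ranged from -0.01 (without control total replicate 3) to 0.0367 in control cultures and from -0.22 to 0.0225 (without CD95L-T4 polysomal replicate 3) in CD95L-T4 cultures. With equal array medians, the median over all tested probe sets was 0.15 and that of the members 0.90 in control cultures. The first was taken over probe sets and cannot be set beside the median over all genes given above. The replicate block gave 65 members between fractions in each kind of culture and 0 for each CD95L-T4 contrast, and changed no comparison's call.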
